A study of Homo sapiens with 3 samples.

Results

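Levels of 10 genes were examined in PC3 cells with and without USP16 knockdown: 7 cyclins (CCND1, CCND3, CCNE1, CCNE2, CCNA2, CCNB1 and CCNB2) and 3 cyclin-dependent kinases (CDK4, CDK2 and CDK1). They were taken by symbol, as the cyclins and kinases that drive the cell cycle, from a table of 60930 genes. Each symbol occurred once in that table. All 10 passed the minimum of 1 TPM on average, as did 13637 of the 59719 distinct gene names. PC3 is a prostate cancer cell line. The 3 RNA-seq libraries came from PC3 cells with the control vector shCON or the USP16 hairpins shUSP16#1 or shUSP16#2, with 1 library each. The paper calls shCON a vector control and lists no hairpin sequence for it. In the paper the hairpins were carried by the pLKO.1 vector, and stable cells were selected with puromycin. The paper does not say whether the sequenced cells were these stable cells, so a shared selection of control and hairpin cells is not certain. The control library is also labelled RFP. No source used here gives a time after selection or says whether the stable cells were 1 clone.

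Cyclins are regulatory subunits that rise and fall through the cell cycle, and each activates a kinase partner. D cyclins with CDK4 act in G1, where they begin to inactivate the retinoblastoma protein. E cyclins with CDK2 act at entry into S phase. Cyclin A acts in S phase and G2, and B cyclins with CDK1 bring the cell into mitosis. Transcription of the E, A and B cyclins and of CDK1 is periodic in dividing cells, through E2F factors and later through the MuvB, B-Myb and FoxM1 complexes. D cyclins respond mainly to growth signals, and CDK4 is transcribed through most of the cycle. In bulk RNA, fewer cells in a given phase and less RNA per cell cannot be told apart.

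Values are TPM, reads divided by transcript length and scaled to the same sum in each library, so levels of different genes can be compared within a library. TPM keeps no record of depth, and with 1 library per condition no difference below has a replicate check, a standard deviation or a p-value. Changes are differences in log2(TPM + 1) from shCON, and the added 1 makes changes of weakly expressed genes look smaller. Both hairpins were set against the same shCON library. The hairpins' target USP16 had 19.9 TPM in the control library, 3.5 TPM with shUSP16#1 and 1.08 TPM with shUSP16#2. Over the 13637 genes the median changes were -0.17 (shUSP16#1) and -0.37 (shUSP16#2), and a change relative to it is called centred. The PC3 markers KRT8, KRT18, VIM and CD44 ranged from 40.5 to 1005 TPM, and KLK3 was listed at 0 in the 3 libraries. Among 8 markers of fibroblasts, endothelium and immune cells, COL1A1 reached 10.7 TPM and the highest of the others was PECAM1 at 1.28 TPM.

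Among the G1 genes, CCND1 was lower under both hairpins, whereas CCND3 and CDK4 stayed near their control level. CCND1, which encodes cyclin D1, was at 163 TPM in the control library, 119 TPM with shUSP16#1 and 90.3 TPM with shUSP16#2. This is 73.1% and 55.5% of the control level, or changes of -0.45 and -0.84. CCND3, which encodes cyclin D3, was at 25.5, 29.9 and 27.3 TPM in the same order. Its changes were 0.22 and 0.09, the 1 pair of the 10 above 0 (0.39 and 0.46 when centred), but they were -0.07 and -0.31 once the trend with GC content described below was removed, and 0.10 and 0.05 when centred as well. CDK4, the kinase partner of the D cyclins, was at 309, 271 and 292 TPM. Its changes of -0.19 and -0.08 became -0.02 and 0.29 when centred, so its direction depended on the scaling. The ratio of CCND1 to CCND3 was 6.37 in shCON, 3.98 with shUSP16#1 and 3.31 with shUSP16#2. In the genome the D cyclin genes lie on chromosomes 11 and 6, and CDK4 on chromosome 12.

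The E cyclins were lower under both hairpins, and CCNE2 showed the largest change of the 10 genes. CCNE1, which encodes cyclin E1, was at 13.9 TPM in the control library, 7.26 TPM with shUSP16#1 and 7.82 TPM with shUSP16#2, changes of -0.85 and -0.76. CCNE2, which encodes cyclin E2, was at 12.1, 4.13 and 3.47 TPM. The hairpin libraries thus held 34.0% and 28.6% of its control level, with changes of -1.36 and -1.55. Under shUSP16#1, 1.72% of all genes tested had a lower change than CCNE2, and under shUSP16#2 4.36%. CDK2, the kinase partner of the E cyclins, was at 48.3, 34.6 and 37.1 TPM. Its changes of -0.47 and -0.37 were smaller than those of both E cyclins, and under shUSP16#2 its centred change was near 0. The ratio of CDK2 to the summed E cyclins was 1.85 in shCON, 3.03 with shUSP16#1 and 3.29 with shUSP16#2.

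The S-phase and mitotic genes were lower under both hairpins, and lower under shUSP16#2 than under shUSP16#1. The median of all genes was also lower under shUSP16#2, at -0.37 against -0.17. With the GC trend described below removed and centred, CCNB2 was at -0.32 under shUSP16#1 and -0.28 under shUSP16#2. CCNA2, CCNB1 and CDK1 stayed lower under shUSP16#2 on that scale. CCNA2, which encodes cyclin A2, was at 38.2 TPM in the control library, 17.3 TPM with shUSP16#1 and 13.0 TPM with shUSP16#2. Its changes were -1.1 and -1.49. CCNA2 and CCNE2 each overlap a gene on the opposite strand that was also lower, and without known strand use their shared reads cannot be told apart. CCNB1, which encodes cyclin B1, was the most abundant cyclin in each library, at 253.5, 141.8 and 109.5 TPM, with changes of -0.83 and -1.2. CCNB2, which encodes the Golgi-associated cyclin B2, was at 56.6, 35.9 and 29.5 TPM. Its changes of -0.64 and -0.92 were the smallest of these 3 cyclins. CDK1, the mitotic kinase, was at 161.6 TPM in the control library, 90.1 TPM with shUSP16#1 and 54.4 TPM with shUSP16#2. It also differed most between the hairpin libraries, with -0.84 under the first and -1.55 under the second. With the GC trend removed and centred, its values were -0.27 and -0.53, and those of CCNE1 were -0.80 and -0.53. On that scale CDK1 therefore did not differ most. USP16 itself was lower under shUSP16#2, but with 1 library per hairpin the difference between hairpins and that between cultures cannot be told apart.

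**Figure D1:**
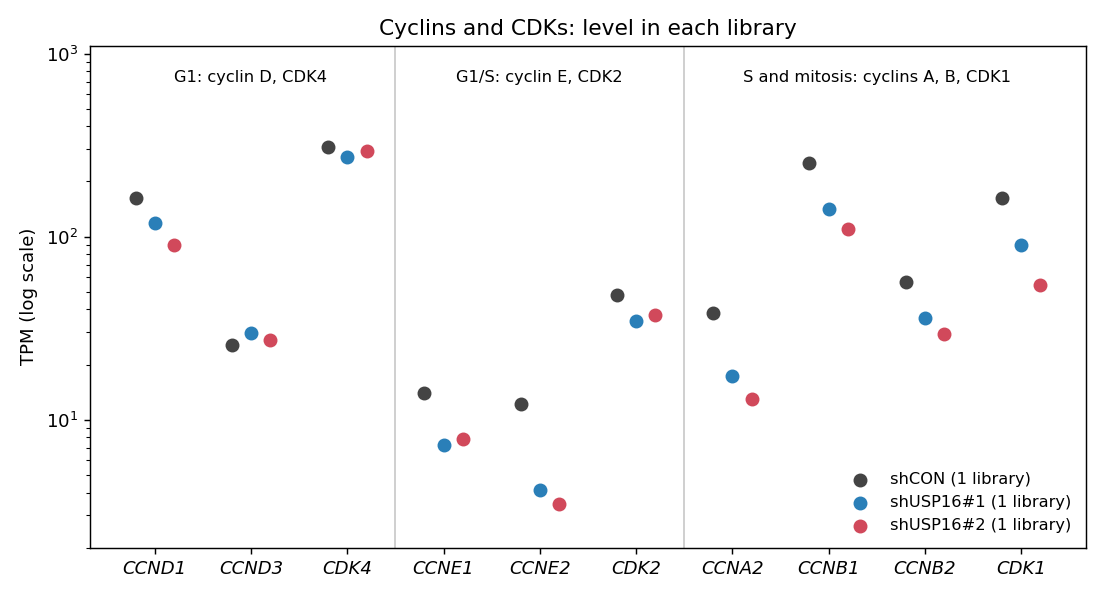
Level of each cyclin and kinase in TPM (vertical axis, log scale) in the 3 libraries, 1 point per library, ordered from G1 to mitosis. CCND1, CCNE2, CCNA2, CCNB1, CCNB2 and CDK1 stepped down from shCON to shUSP16#1 to shUSP16#2, whereas CDK4 lay between 271 and 309 TPM.

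The 3 stretches below are shown because the S-phase and mitotic genes share the letters CCAAT upstream of their starts. These letters do not set them apart from the other members, since CDK4 and CCNE1 lack them but some windows of CCND3 hold them. The stretches were taken from the RefSeq promoter table of GRCh38.p14, in which 7 of the 10 genes were matched. CCND1, CCNE2 and CDK2 had no entry. Each stretch is the part of the 250 bases before the start that lies upstream of every exon annotated for the gene, read 5′ to 3′ along the gene. The motifs searched on both strands were CCAAT, bound by NF-Y, then TTTGAA, the core of the cell cycle homology region, then TTCGCGC or TTGGCGC or TTCCCGC as E2F sites, and CACGTG, the E-box that Myc and Max bind. No match overlaps another in these stretches, and capitals mark every match, so that ATTGG is CCAAT on the other strand. The stretch of CCNA2 has 200 bases at chr4:121823934-121824133 on the reverse strand. That of CCNB2 has 182 bases at chr15:59104896-59105077 and that of CDK1, before the upstream of 2 starts, has 250 bases at chr10:60778081-60778330, both on the forward strand.
CCNA2: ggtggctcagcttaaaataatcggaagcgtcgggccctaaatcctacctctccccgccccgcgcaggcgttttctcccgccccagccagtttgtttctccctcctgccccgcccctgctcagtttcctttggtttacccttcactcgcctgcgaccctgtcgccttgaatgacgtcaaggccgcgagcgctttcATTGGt
CCNB2: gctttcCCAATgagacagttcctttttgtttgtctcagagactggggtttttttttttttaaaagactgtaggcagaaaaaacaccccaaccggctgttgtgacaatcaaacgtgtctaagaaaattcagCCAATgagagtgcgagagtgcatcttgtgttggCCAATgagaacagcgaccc
CDK1: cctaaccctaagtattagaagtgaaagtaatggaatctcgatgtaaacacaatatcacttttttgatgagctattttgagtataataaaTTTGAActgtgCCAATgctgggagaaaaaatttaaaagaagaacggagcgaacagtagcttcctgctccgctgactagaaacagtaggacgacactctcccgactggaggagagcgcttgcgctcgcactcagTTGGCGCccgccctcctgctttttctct

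Over the whole window of 300 bases around each start, CCAAT occurred 1 time in CCNA2, 2 times in CCNB1 and 4 times in CCNB2, and in CDK1 1 time at the upstream start and 2 times at the downstream start. At least 1 match was found in 34.6% of all 35116 promoters in the table, and at least 2 in 10.8%. The matches shown for CCNB2 began 244, 120 and 87 bases before its start, each followed by the letters GAGA, and the last of the 4 began 54 bases before it. In CCNB1 they began 87 and 55 bases before the start, and in CCNA2 56 bases before it. TTTGAA, found in 15.2% of all promoters, began 29 bases before the start of CCNB2 and 161 bases before the upstream start of CDK1. The downstream start of CDK1 held it 3 times, beginning 69 and 13 bases before that start and, on the other strand, at base 10 counted from it. At least 3 matches were found in 0.293% of all promoters. An E2F sequence, found in 11% of all promoters, was present in CCNB1 and at both starts of CDK1. The starts of CDK1 lie 147 bases apart, so their windows overlap and hold the same E2F matches. CDK4 held the E-box 3 times, 216, 196 and 101 bases before its start. Of all promoters 7.26% held at least 1 E-box and 0.094% at least 3. CCNB1 held 1 E-box, 196 bases before its start. The window of CCNE1 held none of these letters, and 2 of the 3 windows of CCND3 held CCAAT 1 time. These matches are letters in a window, and binding was not measured.

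Set against all genes, the 10 were shifted to lower values, and 2 of them were past 2-fold under both hairpins. Under both hairpins 9 of the 10 were lower than in shCON, against 57.2% of all genes tested. Relative to the median change, 8 were lower under both hairpins, against 41.7% of all genes. CCND3 was above that median under both, and CDK4 was below it under shUSP16#1 and above it under shUSP16#2. A level at least 2-fold lower was found for 2 genes (CCNE2 and CCNA2) under shUSP16#1, against 5.79% of all genes. Under shUSP16#2 it was found for 4 genes (CCNE2, CCNA2, CCNB1 and CDK1), against 19.5%. CCNE2 and CCNA2 were at least 2-fold lower under both hairpins, against 4.6% of all genes. The median change of the 10 was -0.74 under shUSP16#1 and -0.88 under shUSP16#2.

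**Figure D2:**
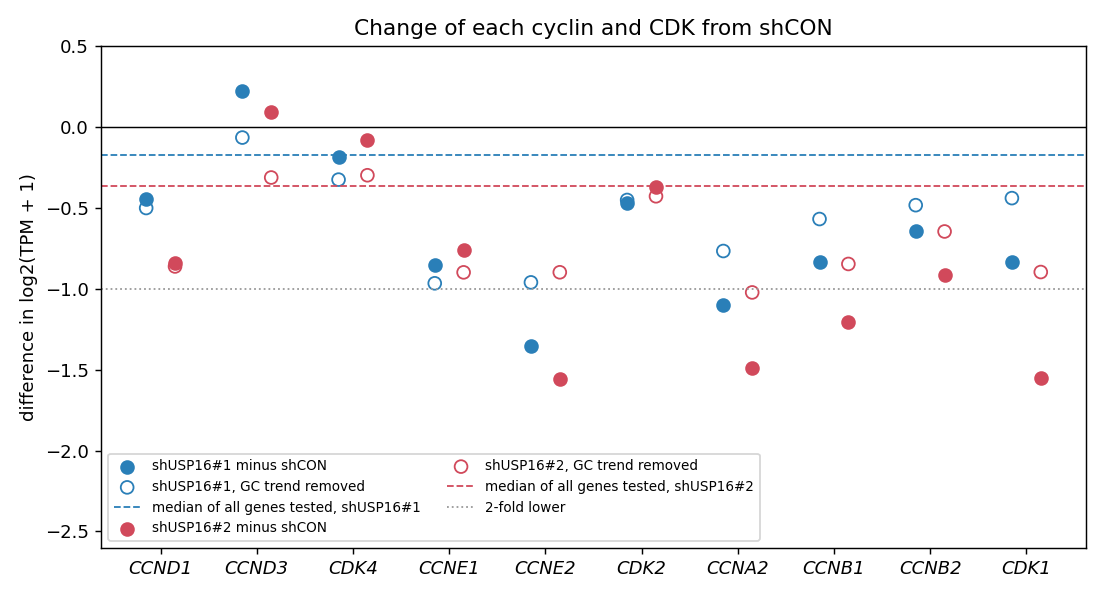
Difference in log2(TPM + 1) from shCON (vertical axis) for each gene under shUSP16#1 (blue) and shUSP16#2 (red), as computed (filled) and with the GC trend removed (open). Dashed lines give the median of all genes tested, -0.17 and -0.37, and CCNE2, CCNA2, CCNB1 and CDK1 lie below the 2-fold line under shUSP16#2.

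The comparison of G1 cyclins with S and mitotic cyclins depended on where the E cyclins were placed. With CCND1, CCND3, CCNE1 and CCNE2 as G1 cyclins, their median change was -0.65 under shUSP16#1 and -0.80 under shUSP16#2. The median of CCNA2, CCNB1 and CCNB2 was -0.83 and -1.2, a difference of -0.18 and -0.40 from the G1 cyclins. The G1 cyclins were not alike, however, since the D cyclins had medians of -0.11 and -0.37 and the E cyclins of -1.11 and -1.16. The difference from the D cyclins alone was -0.72 and -0.83 for the S and mitotic cyclins, and -0.99 and -0.78 for the E cyclins. The S and mitotic cyclins minus the E cyclins gave 0.27 and -0.05, with opposite sign under the hairpins. Among the kinases the order followed the cycle, CDK4 nearest to its control level, then CDK2, then CDK1. CDK1 minus CDK4 gave -0.65 for shUSP16#1 and -1.47 for shUSP16#2. With the GC trend removed, CDK1 and CDK2 differed by 0.01 under shUSP16#1, so that order did not hold there.

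The summed level of the 7 cyclins was 562.6 TPM in the control library, 355.2 TPM with shUSP16#1 and 281.0 TPM with shUSP16#2. CCNA2, CCNB1 and CCNB2 made up 61.9%, 54.9% and 54.1% of these sums. The share of the D cyclins was 33.5% in shCON and 41.9% under either hairpin. The E cyclins held 4.63%, 3.21% and 4.02%. The summed level of the 3 kinases was 519.1, 396.1 and 383.8 TPM, within which the share of CDK1 was 31.1%, 22.8% and 14.2%. The ratio of CDK4 to CDK1 was accordingly 1.91 in shCON, 3.01 with shUSP16#1 and 5.37 with shUSP16#2. The B cyclins and CDK1 kept a ratio of 1.92 and 1.97 in shCON and under shUSP16#1, and of 2.56 under shUSP16#2. The order of the cyclins from most to least abundant was CCNB1, CCND1, CCNB2, CCNA2, CCND3, CCNE1 and CCNE2 in shCON. Under both hairpins CCND3 stood above CCNA2, and the other places were kept. No spread is known for these levels, so whether CCNE1 at 13.9 TPM and CCNE2 at 12.1 TPM differ in shCON cannot be said.

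**Figure D3:**
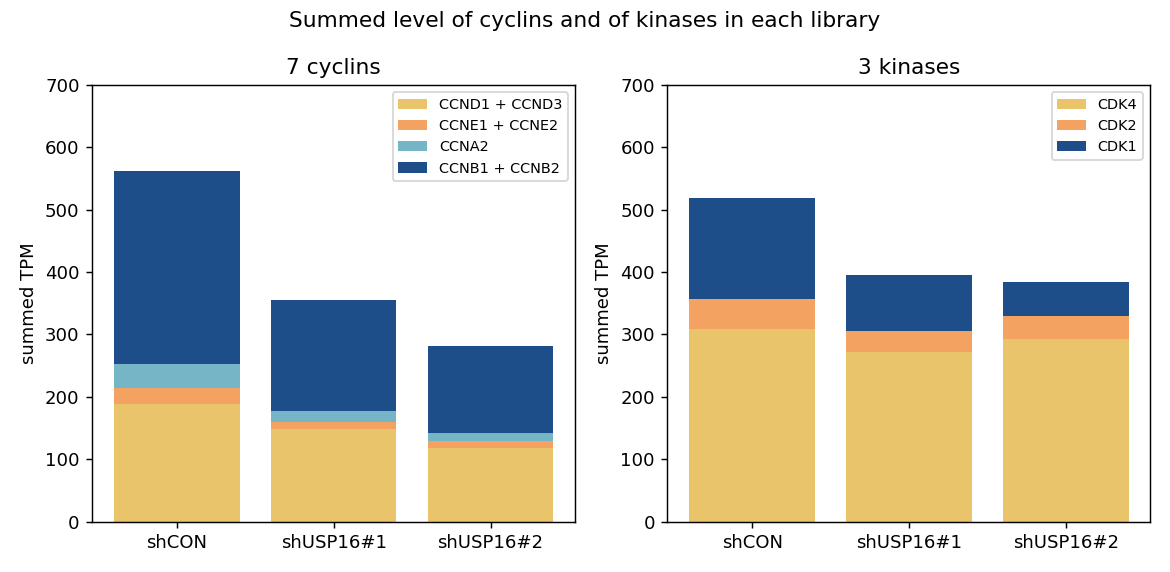
Summed TPM (vertical axis) of the 7 cyclins (left) and the 3 kinases (right) in each library, with coloured parts for the genes named in the legends. The sum of the cyclins was 562.6, 355.2 and 281.0 TPM, and the part of CDK1 was 31.1%, 22.8% and 14.2% of the kinases.

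The members also differed in GC content, and changes over all genes moved with it. Among all genes tested, the 50 bins of genes by GC content of the longest transcript had median changes from -0.60 in the lowest bin to 0.36 in the highest under shUSP16#1, and from -1.11 to 0.30 under shUSP16#2. CCNE2 and CDK1 had the lowest GC content of the members, 36.9% and 37.0%, followed by CCNA2 at 42.1%, CCNB1 at 43.2% and CCNB2 at 44.35%. CCND1, CDK2, CCNE1, CDK4 and CCND3 had from 50.3% to 56.2%, and the median of all genes tested was 49.1%. In the GC bin of CDK1 and CCNE2 the median gene had -0.57 and -1.02. CDK1 had -0.84 and -1.55, and CCNE2 had -1.36 and -1.55. In the bin of CCNE1 the median was -0.06 and -0.23, against -0.85 and -0.76 for CCNE1 itself. With 1 library per condition, a GC bias of a library and a change in the cells cannot be told apart.

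With the GC trend removed, each of the 10 lay below its control level under both hairpins, against 61.1% of all genes with a known GC content. This scale keeps the overall median, and 8 of the 10 lay below the median of their GC bin under both, against 39.2%. CCND3 lay above that of its bin under both, by 0.10 and 0.05. The E cyclins then had the lowest mean changes, -0.93 for each of CCNE1 and CCNE2, followed by -0.89 for CCNA2, -0.71 for CCNB1, -0.68 for CCND1 and -0.67 for CDK1. CCND3 was the closest to 0, at -0.19, and none of the 10 was at least 2-fold lower under both hairpins, against 1.99% of all genes, so the count is near the background. The S and mitotic cyclins were then higher than the 4 G1 cyclins by 0.16 under shUSP16#1 and 0.03 under shUSP16#2, so the direction of that comparison was turned. Against the D cyclins alone the difference kept its sign, at -0.29 and -0.26, and that of the E cyclins was -0.68 and -0.31. CDK1 minus CDK4 gave -0.11 and -0.60 on the same scale.

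**Figure D4:**
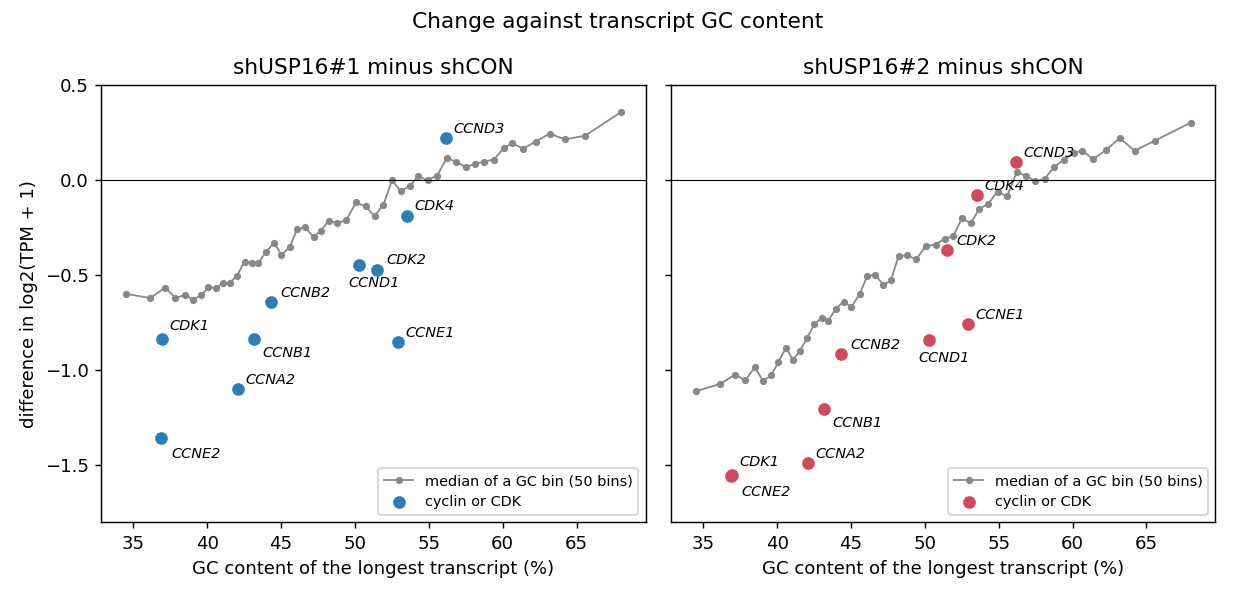
Difference in log2(TPM + 1) from shCON (vertical axis) against transcript GC content in percent (horizontal axis) for the 10 genes (coloured points) under shUSP16#1 (left) and shUSP16#2 (right). The grey line joins the medians of 50 bins of all genes tested, from -0.60 to 0.36 on the left and from -1.11 to 0.30 on the right. In both panels 8 of the 10 genes, CCNE1 among them, lie below the median of their bin.

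The lists of other pathway genes had lower medians to different degrees, and they differed in GC content. Beside their counts stand 57.2% of all genes lower under both hairpins, 4.6% at least 2-fold lower and 3343 of 13637 higher under both. Of 6 further cyclins and kinases of the cycle, CCND2 was listed at 0 in the 3 libraries, CCNB3 was below the minimum, and 4 were tested. CDK6, which binds D cyclins like CDK4, was at 4.97, 2.0 and 0.99 TPM, changes of -0.99 and -1.58. CCNF, the cyclin F subunit of a ubiquitin ligase, was at 10.2, 7.27 and 7.04 TPM. The remaining 2 are given to complete the list. CDK3 was at 1.35, 1.29 and 1.14 TPM, and CCNA1, the germline cyclin A, was higher under both hairpins, at 2.39, 5.0 and 2.54 TPM. The medians of these 4 were -0.24 and -0.31, close to the -0.17 and -0.37 of all genes. With the GC trend removed these medians were -0.43 and -0.68, below the -0.17 and -0.37 of all genes on that scale. The 8 genes that activate CDKs had medians of -0.35 and -0.66, and 7 were lower under both hairpins, none by 2-fold under both. Once the GC trend was removed, their medians were 0.0075 and -0.34, no lower than the -0.17 and -0.37 of all genes on that scale. Among them CCNH, the cyclin of the CDK-activating kinase, was at 75.9, 45.7 and 32.9 TPM, and CDC25A, a phosphatase that removes inhibitory phosphates from CDKs, was at 21.2, 13.3 and 10.2 TPM.

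The 9 genes that inhibit CDKs had medians of -0.24 and -0.32, close to those of all genes, with 5 lower and 2 higher under both hairpins. Removing the GC trend gave -0.17 and -0.48, at a median GC content of 58.1%. CDKN1C, which encodes p57, was at 3.51 TPM in the control library, 7.43 TPM with shUSP16#1 and 7.7 TPM with shUSP16#2. Its changes were 0.90 and 0.95, and 0.52 and 0.43 with the GC trend removed. CDKN1A, which encodes p21, was at 77.3, 59.0 and 42.7 TPM, and CDKN1B, which encodes p27, at 13.0, 9.52 and 8.88 TPM. WEE1, the kinase that holds CDK1 inactive before mitosis, was at 11.1, 8.07 and 6.23 TPM.

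The 22 genes of cyclin destruction, most of them subunits of the anaphase-promoting complex, had medians of -0.37 and -0.67. Of these 19 were lower under both hairpins (57.2% of all genes), 3 of them at least 2-fold (4.6% of all genes), and 3 were higher under both. Without the GC trend the medians were -0.31 and -0.66, and only ANAPC1 was at least 2-fold lower under both (1.99% of all genes). Among the higher ones, ANAPC11, a subunit of the complex named after its values were seen, was at 200.5, 291.8 and 299.4 TPM. FBXO5, an inhibitor of the complex in S phase and G2, was at 16.5, 6.03 and 4.83 TPM. The subunits ANAPC1 and CDC27 were at 36.6, 14.2 and 13.0 TPM and at 38.3, 17.4 and 10.3 TPM.

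The 23 genes of cyclin transcription had medians of -0.48 and -0.99, with 17 lower and 2 higher under both hairpins. On the GC-removed scale they were -0.41 and -0.69, and the difference from the other lists was not tested. E2F3, E2F7 and LIN54, a DNA-binding subunit of MuvB, were at least 2-fold lower under both (4.6% of all genes). With the GC trend removed none of the list was, against 1.99% of all genes. E2F3 was at 13.3, 5.51 and 4.1 TPM, E2F7 at 7.68, 3.09 and 2.03 TPM and LIN54 at 4.31, 1.62 and 1.01 TPM. E2F1, an activator of S-phase genes, was at 41.6, 37.7 and 42.3 TPM, changes of -0.14 and 0.02. FOXM1 was at 68.6, 43.7 and 39.3 TPM and MYBL2, which encodes B-Myb, at 150.7, 110.7 and 129.2 TPM. MYC was at 238.1, 208.9 and 172.6 TPM.

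Of 31 cyclins and kinases with roles in transcription and other processes, 27 were tested, with medians of -0.40 and -0.69. Of these 19 were lower under both hairpins (57.2% of all genes) and 5 were higher under both. CCNC and CDK12, which act with RNA polymerase II, and CDKL1 were at least 2-fold lower under both (4.6% of all genes). With the GC trend removed only CDKL1 was, against 1.99% of all genes. CCNC was at 53.2, 25.4 and 25.5 TPM, CDK12 at 15.2, 6.21 and 4.72 TPM and CDKL1 at 17.6, 7.05 and 4.05 TPM. CDK20 was at least 2-fold higher under both, at 0.73, 3.1 and 3.05 TPM, as were 155 of all 13637 genes. Its level in shCON was low, and its changes with the GC trend removed were 1.05 and 0.95. The medians of the 27 genes on that scale were -0.26 and -0.42, against -0.49 and -0.85 for the 10 members. The 112 tested genes that the deposited table annotates to the KEGG term Cell cycle, without the 10, had medians of -0.53 and -0.78, and 84 were lower and 12 higher under both hairpins. With the GC trend removed their medians were -0.35 and -0.60.

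**Figure D5:**
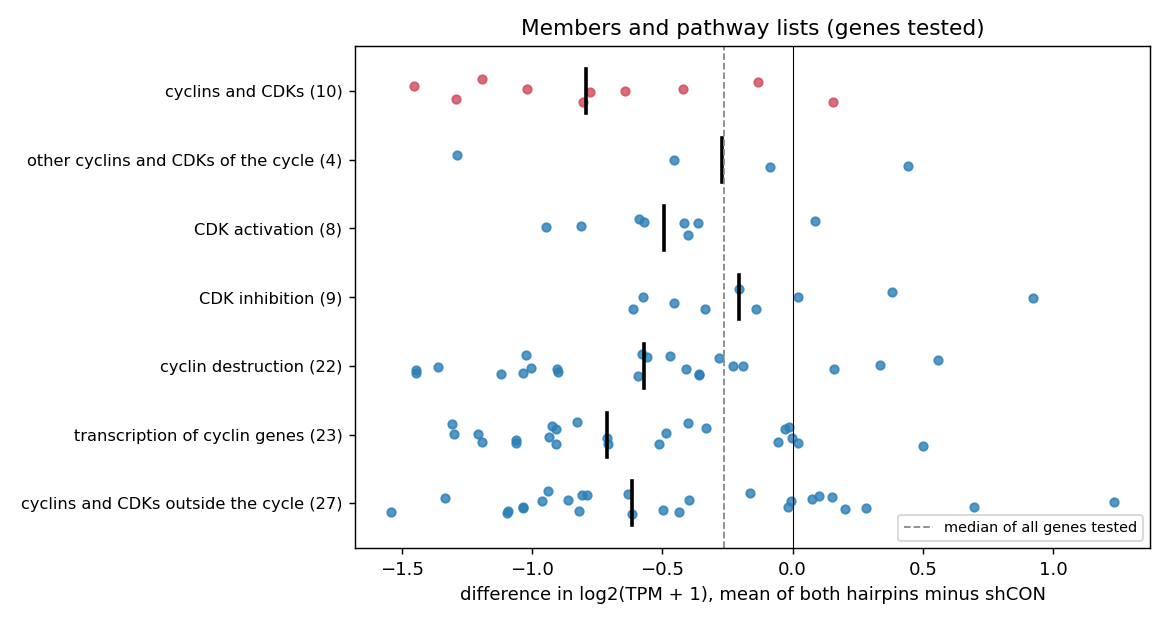
Difference in log2(TPM + 1) from shCON, as the mean of both hairpins (horizontal axis), for each tested gene of the 10 (red) and of 6 pathway lists (blue), with the number of genes in brackets. Black bars are medians, -0.79 for the 10 and -0.71 for the genes of cyclin transcription, and the dashed line is the median of all genes tested, -0.27.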

How the data were processed

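Total RNA of PC3 cells was used for library construction with the Illumina TruSeq RNA kit and was sequenced by Majorbio. The table deposited by the authors holds TPM rounded to 2 decimals and was made on the Majorbio Cloud Platform. The submitters' processing notes name CASAVA, HISAT2 and the build hg19. The quantification tool, the annotation and the use of strand in counting are not given in the sources used here, while 58516 gene identifiers matched GENCODE release 29 (GRCh38). The 3 columns that repeat others were not used.

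Of entries sharing a name, the 1 with the highest mean was kept (1211 left out), and genes averaging 1 TPM or more were taken as tested. Called means at least 2-fold on the log2(TPM + 1) scale. GC content was that of the longest GENCODE transcript, known for 97.5% of genes tested. The trend was removed by subtracting the median of each of 50 bins and adding back the overall median. Alternatives were a pseudocount of 0.1, centring, no minimum or 5 TPM, GC trend removal, protein-coding genes only and each hairpin alone. No test across samples was possible, and depth is unknown.

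The members, the 7 lists and the motifs were chosen with earlier results of these data known, and the lists were written from general knowledge, apart from the KEGG term. Named were the 10 members, USP16, MYC, CDK6, CCND2, CDKN1A, CDKN1B, E2F1, FOXM1 and MYBL2, the genes of each list at least 2-fold changed in 1 direction under both hairpins (where fewer than 2, those with the largest change), and the 5 genes nearest to the mitotic cyclins. The procedure was tested on simulated data. Python 3.11.15, numpy 2.4.6, pandas 2.3.3 and matplotlib 3.10.9 were used.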

Additional observations from a re-analysis of the deposited data

How the results depend on the processing

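No paired analysis was possible because there was a single library in each of the 3 groups. A value counts as moved when it shifts by more than the SD between the 2 hairpins, and the count of members when it changes more than 1.5-fold. Apart from that count, the value of either hairpin alone lies within the SD by construction. The medians of the 10 genes averaged -0.81 over the hairpins. They averaged -0.54 after centring, -0.67 without the GC trend and -0.41 with both steps, and ranged from -0.88 to -0.74 for each hairpin alone. The difference of S and mitotic from G1 cyclins, -0.29, was 0.098 without the GC trend, centred or not, -0.77 against the D cyclins alone, and from -0.40 to -0.18 for each hairpin alone. The count of members past 2-fold under both hairpins was 2, against 4.6% of all genes. It was 1 after centring (CCNE2), 0 without the GC trend, centred or not, and 6 at 1.5-fold. For each hairpin alone, a looser condition by construction, it was from 2 to 4, against 5.79% and 19.5% of all genes. The share of all genes was not computed after centring or at 1.5-fold, so those counts cannot be read against it. The share of S and mitotic cyclins differed from the control by -7.42 percentage points on average, by -8.39 points without the E cyclins, by -5.964 points without CCND1, and by -7.82 to -7.02 for each hairpin alone. The mean change of CCND3, 0.16, was -0.19 without the GC trend but 0.078 after both steps, so its sign rests on keeping the overall median, that of CDK4, -0.13, was 0.14 after centring, and that of the CDK activation list, -0.50, was 0.10 after both steps. Rescaling to protein-coding genes, chosen after seeing the data, gave a median of the 10 genes of -0.79, within that SD, and a count of 2. Apart from the GC and centring steps, whose effect follows from their construction, the cause was not tested. TPM keeps no depth, so no limit from depth can be given.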

Other observations

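Several members overlap another gene, and the use of strand in counting is not known, so reads from both genes cannot be told apart where they overlap. EXOSC9, a subunit of the RNA exosome that overlaps CCNA2 on the opposite strand, was at 24.4 TPM in the control library, 12.5 TPM with shUSP16#1 and 9.35 TPM with shUSP16#2. The opposite-strand genes INTS8 and NDUFAF6 overlap CCNE2, and were at 19.0, 14.2 and 8.74 TPM and at 44.4, 21.9 and 21.7 TPM. TSPAN31, which overlaps CDK4, was at 23.3, 25.3 and 24.7 TPM, and LTO1, which overlaps CCND1, was at 40.6, 28.96 and 29.1 TPM. The processed pseudogenes CCND3P1, CCND3P2, CDK4P1 and CCNB2P1 were listed at 0 in the 3 libraries.

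Among 8541 protein-coding genes averaging 5 TPM or more, the 5 whose pair of changes lay nearest to the medians of CCNA2, CCNB1 and CCNB2 were NIPSNAP2, DKC1, ORC5, GGH and GTF2H2. DKC1, the pseudouridine synthase dyskerin, was at 151.2 TPM in the control library, 84.2 TPM with shUSP16#1 and 65.7 TPM with shUSP16#2, and ORC5, a subunit of the origin recognition complex, was at 19.6, 10.5 and 8.02 TPM. The likeness rests on 2 values per gene, and 131 genes lay within 0.1 log2 units.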
